A study of Arabidopsis thaliana with 14 samples.

Results

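UDP-glycosyltransferases (UGT genes) were followed through the compartments of Arabidopsis thaliana seeds at the mature green stage. The set holds every probe set of the ATH1 array that was assigned to 1 gene with a symbol of UGT followed by a digit. It counts 47 probe sets, 1 for each of 47 genes in 11 families and 21 subfamilies, among 22746 probe sets that are not controls, of which 13513 were assigned to 1 gene. A further 3 probe sets shared by a UGT gene and another gene were not used.

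All seeds were of accession Ws-0, with no transgene or treatment named in the labels, from plants 38 to 46 days old that grew in continuous light at 20 °C. Siliques of 1.8 to 2 cm were fixed in a mixture of ethanol with acetic acid, set in paraffin and sectioned, and each compartment was cut out with a laser. The 7 groups, with 2 arrays each, were the embryo proper (called embryo here), the micropylar, peripheral and chalazal endosperm, the chalazal seed coat, the seed coat, and whole seeds taken from serial sections. From each sample 5 to 6 ng of RNA was amplified before hybridisation.

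These enzymes transfer a sugar from a UDP-sugar to a small molecule such as a flavonoid, a phenolic acid or a hormone. The sugar makes the acceptor more soluble, often inactivates it if it is a hormone, and allows storage in the vacuole. Family numbers and subfamily letters follow sequence similarity, so members of a subfamily are close relatives that may use different acceptors. In seeds, flavonol glycosides, proanthocyanidins of the seed coat and glucose esters of sinapate are well known products or relatives of these pathways.

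Signals are deposited array intensities on a linear scale, and every array had nearly the same trimmed mean (500.042 to 500.056). The correlation of log2 signals between the replicates of a group ran from 0.812 in seed coat to 0.929 in peripheral endosperm. The labels call the replicates biological but do not say which plants they came from, so a p-value here speaks only of the spread between such samples, which may be technical. The spiked hybridisation controls were brighter on the seed coat arrays (geometric means 60771 and 83579) than on any other array (24204 to 39498). The annotation used here names no gene for 8730 of the 22746 probe sets, so a gene of a list that was not found may lie on the array unnamed. Of the marker lists, 1 of 14 embryo markers was found, PAP85, a vicilin-type storage protein gene. Its signal was 34428 to 79666 in embryo, 4861 to 24628 in the endosperm parts and 273 to 3807 in the seed coats. The 4 of 13 seed coat markers that were found (BAN, DELTA-VPE, PRX36 and ARA12) summed to 464 to 721 in embryo, 1775 to 2856 in endosperm and 6695 to 21706 in the coats. ARA12 made up most of the sum in every compartment but chalazal endosperm (1060 ± 538, n = 2), with 15565 ± 5756 in seed coat (n = 2). The others did not all follow it: BAN was 773 ± 588 in chalazal seed coat but 24.4 ± 0.58 in seed coat, as in embryo (24.5 ± 25.0). DELTA-VPE was 1919 ± 259 in seed coat and 624 ± 119 in chalazal seed coat, but 1515 ± 902 in chalazal endosperm, 1.68 ± 0.37 on the log2 scale above the other 5 compartments (limma, adjusted p = 0.00732). Of the endosperm markers only AGL62, an early regulator, was found (1 of 10), and it was highest in chalazal seed coat (109.9 ± 24.7, SD, n = 2), so the endosperm label has no marker check here. SWEET11, a sugar exporter and the 1 of 6 phloem and unloading markers found, was highest in peripheral endosperm (6627 ± 1999, n = 2) and lowest in embryo (128 ± 3.32, n = 2). That list was meant to mark the chalazal seed coat, where SWEET11 gave 1168 ± 426 (n = 2). There it was not called against the other 5 compartments (-0.52 ± 0.35, limma, adjusted p = 0.276). No marker had a signal of 0. The part of RNA from neighbouring compartments in the results was not tested.

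Of the 47 genes, 28 passed the filter on low signals, which asked that both arrays of at least 1 group lie above their array's median. A gene that passed through its highest compartment alone had to vary, so counts over the 28 describe them and are no evidence on the family. UGT71B6 and UGT71C3 passed through peripheral endosperm alone, UGT74F1 through chalazal endosperm alone, and UGT76D1 and UGT85A2 through seed coat alone. Differences given below for these genes, with their p-values, only describe them. Compartments were ordered by the mean log2 signal, with signals under a floor of 23.43 raised to it. Among the 28, 8 were highest in seed coat (UGT71B1, UGT71C4, UGT72E2, UGT73B1, UGT73C2, UGT76D1, UGT78D1 and UGT85A2). Another 8 were highest in peripheral endosperm (UGT71B6, UGT71C3, UGT72B3, UGT76E2, UGT78D2, UGT84A1, UGT84A3 and UGT85A7). Embryo was the highest compartment of 4 (UGT71B8, UGT74D1, UGT76C1 and UGT88A1), as was chalazal endosperm (UGT74F1, UGT76C2, UGT80B1 and UGT84B1). Micropylar endosperm was highest for 2 (UGT71C5 and UGT87A2), and chalazal seed coat also for 2 (UGT74B1 and UGT85A4). Chalazal seed coat was the lowest compartment of 9, more than any other compartment. How often it was lowest over all probe sets is not given here, so this count has no share beside it. By calls, an unlike measure, 6 of the 28 were lower there than the mean of the other 5. Of all probe sets tested 16.8% were, the largest such share of any compartment. Leaving out 1 array gave another highest compartment for 11 of the 28 (UGT71B6, UGT71B8, UGT71C4, UGT71C5, UGT74D1, UGT76E2, UGT78D2, UGT80B1, UGT85A4, UGT85A7 and UGT87A2), and other scalings did so for 6 (UGT71C4, UGT71C5, UGT73C2, UGT78D1, UGT78D2 and UGT85A2).

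**Figure D1:**
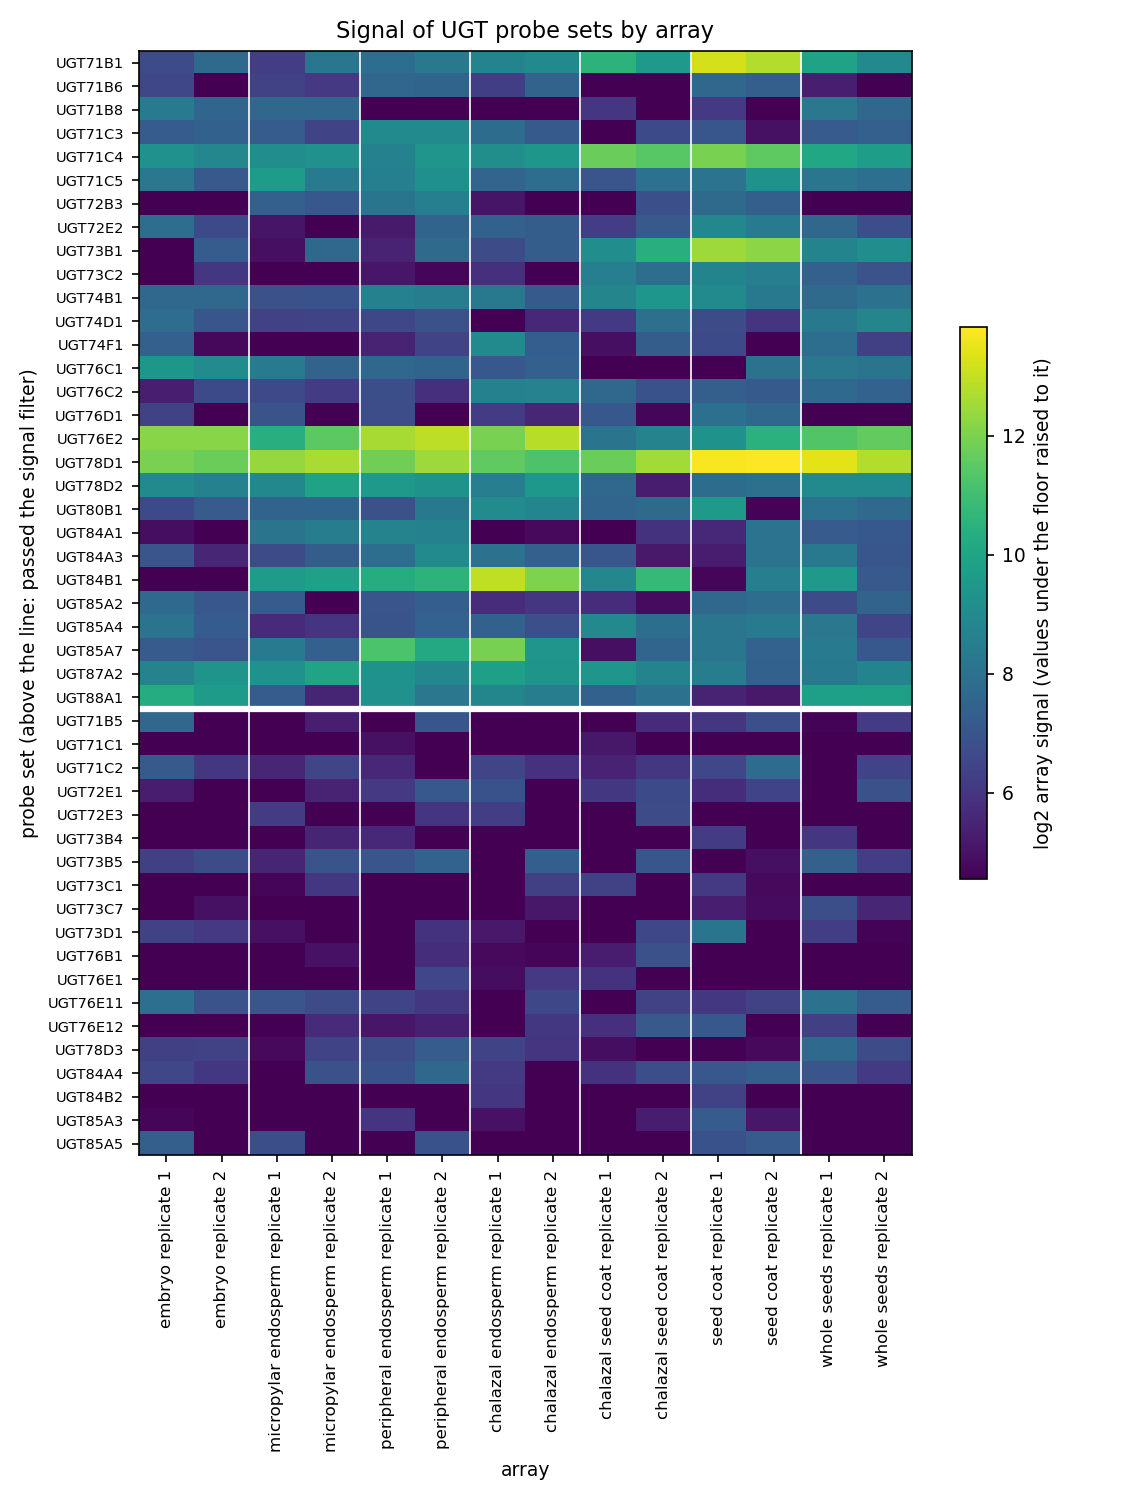
Log2 signal of all 47 UDP-glycosyltransferase genes (rows) on each of the 14 arrays (columns), with signals under the floor of 23.43 raised to it. The 28 genes above the white line passed the filter on low signals, and the 19 below it did not.

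A moderated F test over the 6 compartments (limma, Benjamini-Hochberg adjusted p under 0.05) called 20 of the 28 genes, against 50.3% of all 14252 probe sets tested. Few peaks stood clear of the next compartment, among these genes as among all probe sets. By the rule that a gene be at least 1 higher on the log2 scale, and called, in each of the 5 pairwise comparisons, 2 genes were higher in 1 compartment than in every other, against 5.52% of all probe sets. Both, UGT71B1 and UGT78D1, peaked in seed coat. For each of the other 26 the highest compartment was not told apart from the second (adjusted p from 0.0806 for UGT73B1 upward). Each compartment was also compared with the mean of the other 5; the 6 differences of a gene sum to 0, so a high value in 1 compartment lowers the others. Differences are on the log2 scale with their SE, adjusted p-values come from limma over all probe sets, and the arrays whose omission ended a call are named with the largest adjusted p over the 14 refits, or, for calls lost without many arrays, the number of refits that kept it is given. In tissue pieces, fewer cells of a type and less RNA per cell cannot be told apart.

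Subfamily UGT78D holds flavonoid glycosyltransferases, and its members that passed the filter had different orders of compartments. Whether they differ in pattern was not itself tested. UGT78D1 (AT1G30530), the flavonol rhamnosyltransferase, gave 13674 and 14597 in seed coat, 5332 and 6417 in micropylar endosperm, 3611 and 5743 in peripheral endosperm, 3434 and 6018 in chalazal seed coat, 3984 and 3425 in embryo, and 3004 and 2427 in chalazal endosperm. It was strong everywhere, with the seed coat arrays above and the chalazal endosperm arrays below all other compartment arrays. The seed coat lay 1.77 ± 0.26 above the mean of the others (3.42-fold, adjusted p = 1.1e-04) and 1.27 ± 0.34 above micropylar endosperm, the second compartment (adjusted p = 0.0103). That second difference was lost without micropylar endosperm replicate 1 (adjusted p = 0.0792), with division by the array median and without an intensity trend. With scaling to the spiked controls, which are brightest on the seed coat arrays, it was -0.05 (adjusted p = 0.927), and the seed coat difference fell to 0.54 (adjusted p = 0.0991).

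UGT78D2 (AT5G17050), the flavonoid glucosyltransferase of the same subfamily, showed another order. Its signals were 472 and 943 in micropylar endosperm, 744 and 645 in peripheral endosperm, 368 and 733 in chalazal endosperm, and 509 and 399 in embryo. In the coats they were 228 and 251 in seed coat, and 200.2 and 38.6 in chalazal seed coat, below every embryo and endosperm array. Both seed coats together were 1.98 ± 0.40 lower than embryo and endosperm (adjusted p = 7.7e-04). Its 4 embryo and endosperm means were not told apart from each other. Chalazal seed coat was 2.45 ± 0.51 below the other 5 (adjusted p = 0.0015), a call that ended without chalazal seed coat replicate 2 (adjusted p = 0.0816). UGT78D3, the flavonol arabinosyltransferase, did not pass the filter, with signals from 11.1 to 209.

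Of the 21 other flavonoid genes of the list, 2 were tested, and the rest were not found in the annotation used here. These were DFR and BAN, enzymes of proanthocyanidin synthesis, and both peaked in the chalazal seed coat, where they were 4.07 ± 0.58 (adjusted p = 5.7e-05) and 4.58 ± 0.59 (adjusted p = 2.1e-05) above the other compartments. In that compartment UGT78D2 was at its lowest. UGT80B1 (AT1G43620), a sterol glucosyltransferase whose mutant has pale seed coats, gave 525 and 451 in chalazal endosperm and 737 and 25.2 in seed coat. The seed coat arrays disagreed, and no comparison called it.

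Subfamilies UGT84A, UGT72E and UGT72B include enzymes of phenylpropanoids, and UGT84A1, UGT84A3, UGT72E2 and UGT72B3 passed the filter while UGT84A4, UGT72E1 and UGT72E3 did not. UGT84A1 (AT4G15480) and UGT84A3 (AT4G15490), which make glucose esters of hydroxycinnamates, are neighbours in the genome and were both highest in peripheral endosperm. UGT84A1 gave 413 and 393 there and 282 and 358 in micropylar endosperm, but 11.9 and 27.4 in chalazal endosperm, 30.1 and 13.8 in embryo, 9.94 and 60.2 in chalazal seed coat, and 48.7 and 270.2 in seed coat. Signal was thus high in both endosperm parts away from the chalazal pole, and close to the floor in chalazal endosperm and embryo. Peripheral endosperm was 2.70 ± 0.62 above the other 5 (adjusted p = 0.0122), lost without peripheral endosperm replicate 1 or 2 (adjusted p up to 0.16). Peripheral and micropylar endosperm were not told apart (0.34 ± 0.80, adjusted p = 0.998), nor were peripheral endosperm and seed coat (adjusted p = 0.11).

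UGT84A3 ran from 242 and 516 in peripheral endosperm to 131 and 36.8 in chalazal seed coat, and no comparison called it. UGT72E2 (AT5G66690), a monolignol glucosyltransferase, gave 468 and 344 in seed coat and 33.9 and 17.9 in micropylar endosperm, its highest and lowest compartments. Seed coat was 3.83 above micropylar endosperm (14.2-fold, adjusted p = 0.00215), with 1 micropylar array under the floor. Seed coat was not told apart from chalazal endosperm, where UGT72E2 gave 175 and 154 (adjusted p = 0.26). Nor was it told apart from embryo (adjusted p = 0.208) or chalazal seed coat (adjusted p = 0.114). Its seed coat difference from the other 5, 2.14 ± 0.62 (adjusted p = 0.0161), was lost without seed coat replicate 1 or 2 (adjusted p up to 0.137) and with scaling to the spiked controls (adjusted p = 0.189).

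UGT72B3 (AT1G01420) gave 286 and 379.9 in peripheral endosperm, 214 and 165 in seed coat and 169 and 137 in micropylar endosperm. It gave 11.3 and 113 in chalazal seed coat, 33.3 and 9.93 in chalazal endosperm, and 19.9 and 5.12 in embryo, both of them under the floor. Peripheral endosperm was therefore at least 14.1-fold above embryo (adjusted p = 0.00362). It was not told apart from seed coat, the second compartment (0.81 ± 0.76, adjusted p = 0.477). Like UGT84A1, it was high in peripheral and micropylar endosperm and near the floor in embryo and chalazal endosperm; the likeness of the genes was not tested. Its call in peripheral endosperm against the other 5, 2.40 ± 0.59 (adjusted p = 0.0172), ended without peripheral endosperm replicate 1 or 2 (adjusted p up to 0.215) and without the floor (adjusted p = 0.106).

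Of the phenylpropanoid and sinapate ester list, 3 of 18 genes were tested. HCT, an acyltransferase on the way to monolignols, was 1.85 ± 0.30 higher in the coats than in embryo and endosperm (adjusted p = 1.1e-04). SDT, spermidine disinapoyl transferase, was 2.99 ± 0.34 higher in micropylar endosperm (13356 ± 1891, n = 2) than in the other 5 (adjusted p = 5.6e-05). It was 2.10 ± 0.34 higher in peripheral endosperm (adjusted p = 0.00124), the pair of compartments in which UGT84A1 was also highest. REF1, which oxidises sinapaldehyde to sinapate, was 1.26 ± 0.32 higher in seed coat (adjusted p = 0.00765) and 1.00 ± 0.32 higher in embryo (adjusted p = 0.0321). In chalazal endosperm REF1 was lower, with a log2 difference of -1.81 ± 0.32 (adjusted p = 0.00153).

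UGT84B1 (AT2G23260), which joins glucose to the auxin indole-acetic acid, spanned the widest range of the set. It gave 7951 and 4155 in chalazal endosperm, 1261 and 1519 in peripheral endosperm, 827 and 924 in micropylar endosperm, and 457 and 1759 in chalazal seed coat. Seed coat gave 26.4 and 363, and embryo 12.6 and 8.96, under the floor on both arrays. The chalazal endosperm arrays lay above all other compartment arrays and the embryo arrays below all of them. Chalazal endosperm was at least 245.3-fold above embryo (adjusted p = 2.8e-05). Against the other 5 it was 4.25 ± 0.75 higher (adjusted p = 0.00143), lost without chalazal endosperm replicate 1 (adjusted p = 0.0656). The embryo was 5.27 ± 0.75 lower (adjusted p = 7.7e-05), a call kept in all 14 refits without 1 array. Chalazal endosperm was not told apart from peripheral endosperm, the second compartment (2.05 ± 0.97, adjusted p = 0.265). Nor was it told apart from chalazal seed coat (adjusted p = 0.0535) or micropylar endosperm (adjusted p = 0.106). Its neighbour UGT84B2 did not pass the filter, with signals from 3.46 to 83.8.

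UGT74D1 (AT2G31750), another auxin glucosyltransferase, was a weak gene, with 234 and 132 in embryo, 69.5 and 255 in chalazal seed coat, and 16.3 and 48.3 in chalazal endosperm, its lowest compartment. No comparison against the other compartments called it. Embryo exceeded chalazal endosperm by 2.39 (adjusted p = 0.035), lost without either embryo array or chalazal endosperm replicate 1 (adjusted p up to 0.223), without the floor and without the filter. Embryo was not told apart from chalazal seed coat (0.40 ± 0.75, adjusted p = 0.718).

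The cytokinin glucosyltransferases UGT76C1 (AT5G05870) and UGT76C2 (AT5G05860) lie next to each other in the genome and peaked in different compartments. UGT76C1 gave 713 and 528 in embryo, 324 and 181 in micropylar endosperm, 201 and 188 in peripheral endosperm, and 135 and 170.0 in chalazal endosperm. It gave 21.3 and 259 in seed coat, and 3.78 and 5.3 in chalazal seed coat. Every embryo array was above, and every chalazal seed coat array below, all other compartment arrays. Embryo was at least 26.2-fold above chalazal seed coat (adjusted p = 4.3e-04). Chalazal seed coat was 3.11 ± 0.66 lower than the other 5 (adjusted p = 0.00185), kept in all 14 refits without 1 array. The embryo difference, 2.54 ± 0.66 (adjusted p = 0.00988), was lost without either embryo array (adjusted p up to 0.127). Embryo was not told apart from micropylar endosperm, the second compartment (1.34 ± 0.86, adjusted p = 0.387). Nor was it told apart from peripheral (adjusted p = 0.3) or chalazal endosperm (adjusted p = 0.119).

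UGT76C2 gave 393 and 405 in chalazal endosperm, above all other compartment arrays, and 206 and 119 in chalazal seed coat, 166 and 146 in seed coat, 97.3 and 73 in micropylar endosperm, 109 and 55.5 in peripheral endosperm, and 40.7 and 101 in embryo. Chalazal endosperm was 1.99 ± 0.52 higher than the other 5 (3.97-fold, adjusted p = 0.0201), lost without chalazal endosperm replicate 1 or 2 (adjusted p up to 0.15). By pairs, it was called above embryo alone (adjusted p = 0.0115). It was not told apart from chalazal seed coat (1.35 ± 0.67, adjusted p = 0.164) or seed coat (adjusted p = 0.156). Nor was it told apart from micropylar (adjusted p = 0.0536) or peripheral endosperm (adjusted p = 0.0525). The embryo, where UGT76C1 was highest, was the lowest compartment of UGT76C2. Whether the 2 genes differ in pattern was not itself tested. UGT73C1, which can glucosylate zeatin, did not pass the filter, with signals from 2.5 to 82.3.

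Among the abscisic acid glucosyltransferases, UGT71B8 (AT3G21800) was high in embryo (325 and 192) and micropylar endosperm (196 and 208), and under the floor on every peripheral and chalazal endosperm array (9.88 and 3.92, and 7.99 and 10.7). The coats gave 64.1 and 7.11 in chalazal seed coat and 67.7 and 20.5 in seed coat. Embryo was at least 10.7-fold above peripheral endosperm (adjusted p = 0.00733), a call lost without embryo replicate 1 or either peripheral endosperm array (adjusted p up to 0.0854). Embryo and micropylar endosperm were not told apart (0.31 ± 0.75, adjusted p = 0.868). Against the other 5, embryo was 2.50 ± 0.58 higher (adjusted p = 0.00495), lost without embryo replicate 1 (adjusted p = 0.103).

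UGT71B6 (AT3G21780) showed nearly equal signals in peripheral endosperm (197 and 188) and seed coat (197 and 163), which were not told apart (adjusted p = 0.946), and was under the floor in chalazal seed coat (21.6 and 11.9). Chalazal seed coat was 2.19 ± 0.60 lower than the other 5 (adjusted p = 0.00964), lost without either of its own arrays (adjusted p up to 0.0795). UGT71C5 (AT1G07240) gave 799 and 321 in micropylar endosperm, 379.8 and 599.6 in peripheral endosperm and 272 and 618 in seed coat. Its groups overlapped and no comparison called it.

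Among genes linked to salicylic acid, UGT71C3 (AT1G07260), which glucosylates methyl salicylate, gave 500.0 and 493 in peripheral endosperm, above all other compartment arrays. Its second compartment, chalazal endosperm, gave 226 and 144, and its lowest, chalazal seed coat, 15 and 100. Peripheral endosperm was 2.30 ± 0.63 above the other 5 (adjusted p = 0.0284), lost without peripheral endosperm replicate 1 or 2 (adjusted p up to 0.246), without the floor and without the filter. UGT71C3 passed the filter through peripheral endosperm alone, so this call only describes it. Peripheral endosperm was not told apart from chalazal endosperm (1.46 ± 0.81, adjusted p = 0.359), embryo (adjusted p = 0.276) or micropylar endosperm (adjusted p = 0.493). UGT74F1 (AT2G43840), a salicylic acid glucosyltransferase, gave 509.6 and 161 in chalazal endosperm against 23.5 and 3.48 in micropylar endosperm. It was called between those compartments (12.2-fold, adjusted p = 0.0482), but leaving out any micropylar, peripheral or chalazal endosperm or whole seed array ended the call (adjusted p up to 0.313), as did no filter, the compartment arrays alone and no intensity trend. Chalazal endosperm was not told apart from chalazal seed coat, the second compartment (adjusted p = 0.181). Nor was it told apart from embryo (adjusted p = 0.195), peripheral endosperm (adjusted p = 0.276) or seed coat (adjusted p = 0.0871). UGT76D1, which acts on dihydroxybenzoic acids, gave 245 and 205 in seed coat and 13.1 to 139 elsewhere in the compartments, with no call. UGT76B1, which acts on salicylic and isoleucic acid, did not pass the filter.

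Of the genes for which no role is stated here, several were high in seed coat. UGT71B1 (AT3G21750) gave 9696 and 6942 in seed coat, 1490 and 767 in chalazal seed coat, 429.9 and 505 in chalazal endosperm, 242 and 318 in peripheral endosperm, 105 and 219 in embryo, and 74.6 and 295 in micropylar endosperm. Both seed coat arrays were above all others, and among the compartments the chalazal seed coat arrays came next without overlap. Seed coat was 4.70 ± 0.47 above the other 5 (26.0-fold, adjusted p = 3.6e-06) and 2.94 ± 0.60 above chalazal seed coat (7.68-fold, adjusted p = 0.00438). Both calls were kept in all 14 refits without 1 array and under all 8 other alternatives.

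UGT73B1 (AT4G34138) gave 5745 and 4786 in seed coat and 553 and 1339 in chalazal seed coat. All 8 arrays of embryo and endosperm lay between 23.9 and 214. Seed coat was 5.25 ± 0.75 above the other 5 (38.1-fold, adjusted p = 8.7e-05), and among the 28 genes only UGT84B1 in embryo differed by more from the other 5. Its difference from chalazal seed coat, 2.61 ± 0.96, missed the threshold (adjusted p = 0.0806). In embryo the replicates were 23.9 and 151, and replicate 1 was the lower array in each endosperm part too.

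UGT71C4 (AT1G07250) and UGT73C2 (AT2G36760) were high in both coats alike. UGT71C4 gave 3991 and 2943 in seed coat, 3377 and 2778 in chalazal seed coat, and 394 to 706 on the 8 arrays of embryo and endosperm. The coats were 2.53 ± 0.23 above embryo and endosperm (5.76-fold, adjusted p = 2.6e-07), and not told apart from each other (0.16 ± 0.37, adjusted p = 0.815). UGT73C2 gave 423 and 365 in seed coat, 364 and 239 in chalazal seed coat, and 5.08 to 65.7 on the 8 arrays of embryo and endosperm, with 4 of these under the floor. The coats were 3.43 ± 0.45 higher (10.8-fold, adjusted p = 1.3e-05), and the coats did not differ beyond their spread (0.42 ± 0.73, adjusted p = 0.756). For both genes the coat call was kept in all 14 refits without 1 array and under all 8 other alternatives.

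**Figure D2:**
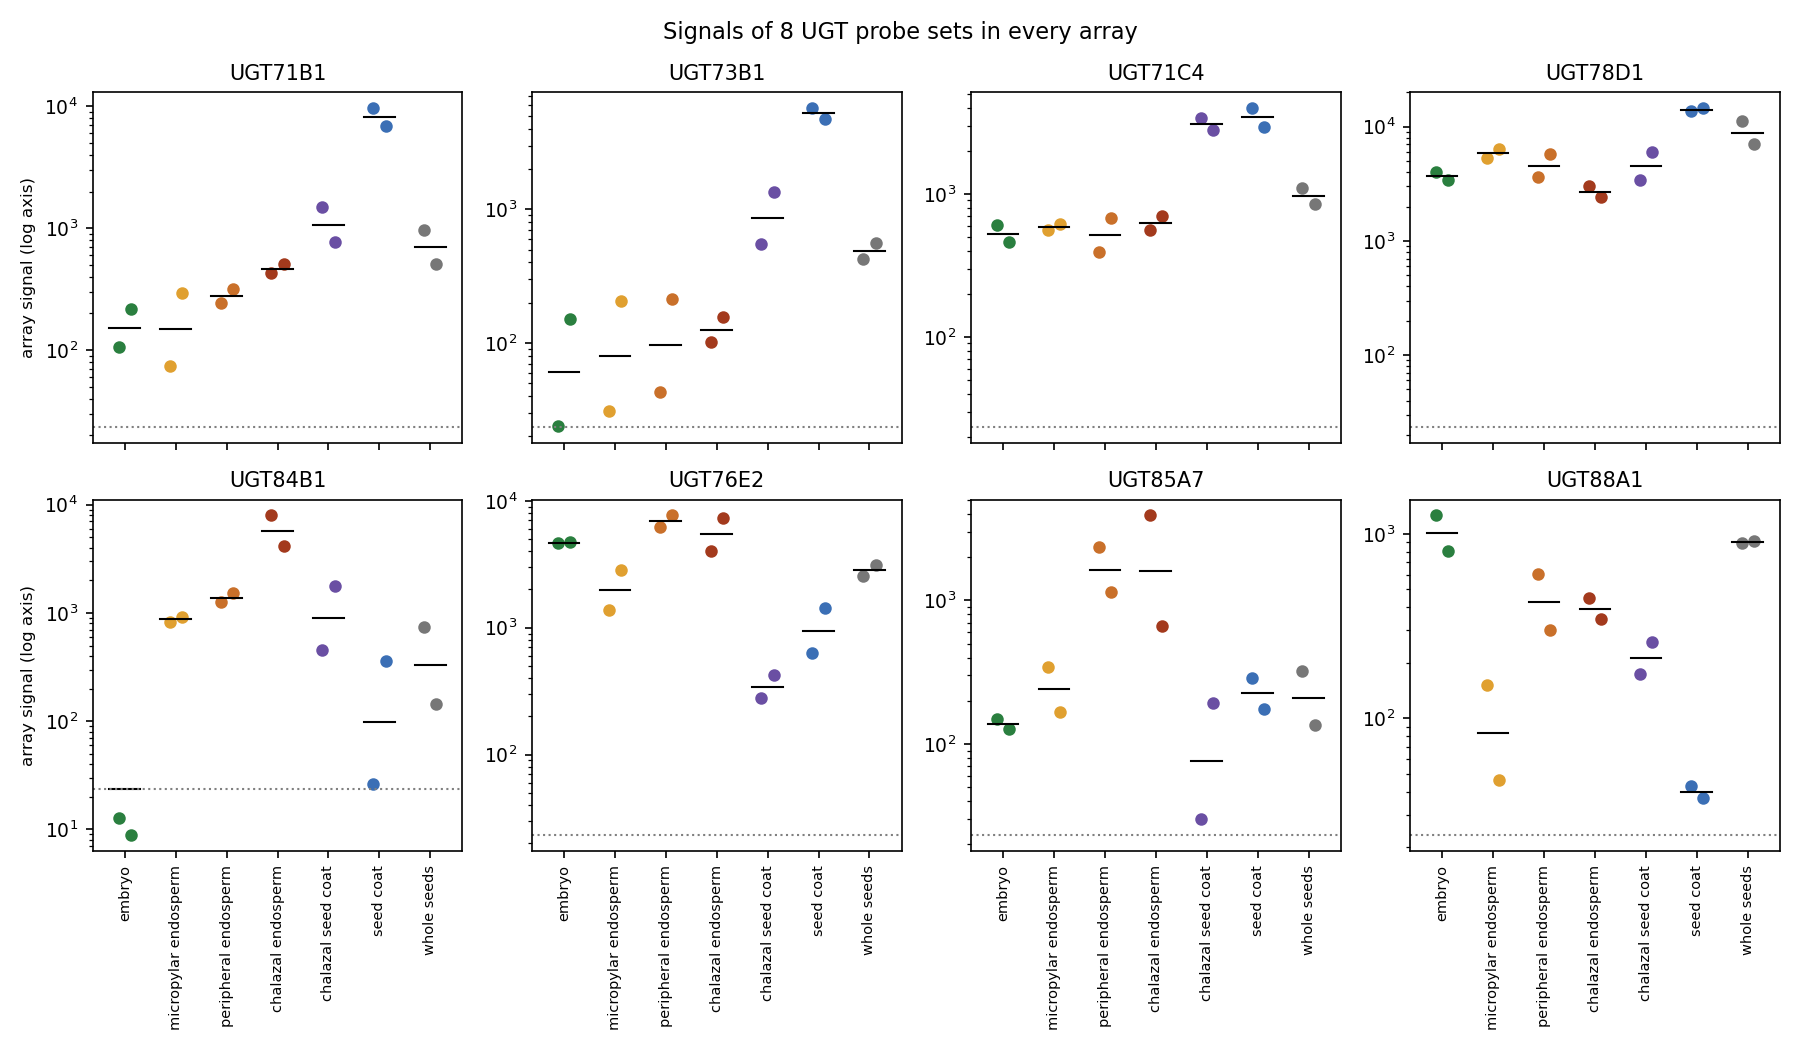
Signal (log axis) of UGT71B1, UGT73B1, UGT71C4, UGT78D1, UGT84B1, UGT76E2, UGT85A7 and UGT88A1 on each array of the 7 groups. Points are arrays, short lines are geometric means of the floored signals, and the dotted line is the floor of 23.43. The seed coat arrays of UGT71B1 (6942 and 9696) lie above all its other arrays, and the embryo arrays of UGT84B1 (12.6 and 8.96) lie under the floor.

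Other genes with no role stated here were low in the coats. UGT76E2 (AT5G59590) was among the strongest of the set, with 6263 and 7658 in peripheral endosperm, 4047 and 7303 in chalazal endosperm, 4659 and 4708 in embryo, and 1373 and 2865 in micropylar endosperm. Seed coat gave 629 and 1432, and chalazal seed coat 277 and 422, below all other arrays. The coats were 2.92 ± 0.26 lower than embryo and endosperm (7.59-fold, adjusted p = 2.8e-07). Chalazal seed coat was 3.22 ± 0.33 lower than the other 5 (adjusted p = 2.4e-06). Both calls were kept in all 14 refits without 1 array. Peripheral endosperm, chalazal endosperm and embryo were not told apart from each other.

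UGT85A7 (AT1G22340) gave 2351 and 1142 in peripheral endosperm and 3896 and 668 in chalazal endosperm, against 343 and 168 in micropylar endosperm, 289.5 and 177 in seed coat, 150.2 and 126 in embryo, and 30.3 and 193 in chalazal seed coat. Both parts were high with a wide spread in chalazal endosperm, and which of them came first changed with the array left out (difference 0.02 ± 0.88, adjusted p = 0.999). Neither peripheral (adjusted p = 0.336) nor chalazal endosperm (adjusted p = 0.0693) was told apart from micropylar endosperm. Peripheral endosperm was 2.73 ± 0.68 above the other 5 (6.63-fold, adjusted p = 0.0181), lost without either of its arrays (adjusted p up to 0.31). Chalazal endosperm was 2.70 ± 0.68 above them (adjusted p = 0.016), lost without chalazal endosperm replicate 1 (adjusted p = 0.417). Both calls were also lost without the filter (adjusted p = 0.0677 and 0.0565).

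UGT88A1 (AT3G16520) gave 1256 and 809 in embryo, above all other compartment arrays, and 606 and 300.3 in peripheral endosperm, 446 and 346 in chalazal endosperm, 174 and 260.0 in chalazal seed coat, 151 and 46.1 in micropylar endosperm, and 43.2 and 36.8 in seed coat. Embryo was 2.62 ± 0.49 above the other 5 (6.15-fold, adjusted p = 8.5e-04), and seed coat 2.97 ± 0.49 below them (adjusted p = 2.9e-04). Both calls were kept in all 14 refits without 1 array. Embryo was not told apart from peripheral endosperm (adjusted p = 0.287) or chalazal endosperm (adjusted p = 0.153).

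UGT74B1 (AT1G24100), the S-glucosyltransferase of glucosinolate synthesis, gave 441 and 685 in chalazal seed coat and 495 and 314 in seed coat. In micropylar endosperm it gave 114 and 119.5, below all other compartment arrays. None of the 9 other glucosinolate core genes of the list was found in the annotation used here. The chalazal seed coat exceeded micropylar endosperm by 2.23 (4.70-fold, adjusted p = 0.00621), lost without chalazal seed coat replicate 2 (adjusted p = 0.0524). Both coats were not told apart (0.48 ± 0.56, adjusted p = 0.626).

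UGT87A2 (AT2G30140), known for a role in flowering time, was even, with means of 538 to 809 in 5 compartments. Seed coat, with 352 and 174, was 1.32 ± 0.39 below the other 5 (adjusted p = 0.017), lost without seed coat replicate 2 (adjusted p = 0.236). Its highest compartments, micropylar and chalazal endosperm, were not told apart (adjusted p = 0.982). In subfamily UGT85A, UGT85A4 (AT1G78270) ran from 483 and 239 in chalazal seed coat and 290.4 and 343 in seed coat to 52.2 and 62.3 in micropylar endosperm. Its micropylar difference, -1.91 ± 0.54 (adjusted p = 0.0312), was lost without either micropylar array, embryo replicate 1 or peripheral endosperm replicate 2 (adjusted p up to 0.234), and with no filter, quantile normalization or scaling to the spiked controls. Its coats were not told apart (0.10 ± 0.70, adjusted p = 0.94). UGT85A2 gave 208 and 232 in seed coat and 52.8 and 28.3 in chalazal seed coat, and its seed coat was not told apart from embryo, the second compartment (adjusted p = 0.76).

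**Figure D3:**
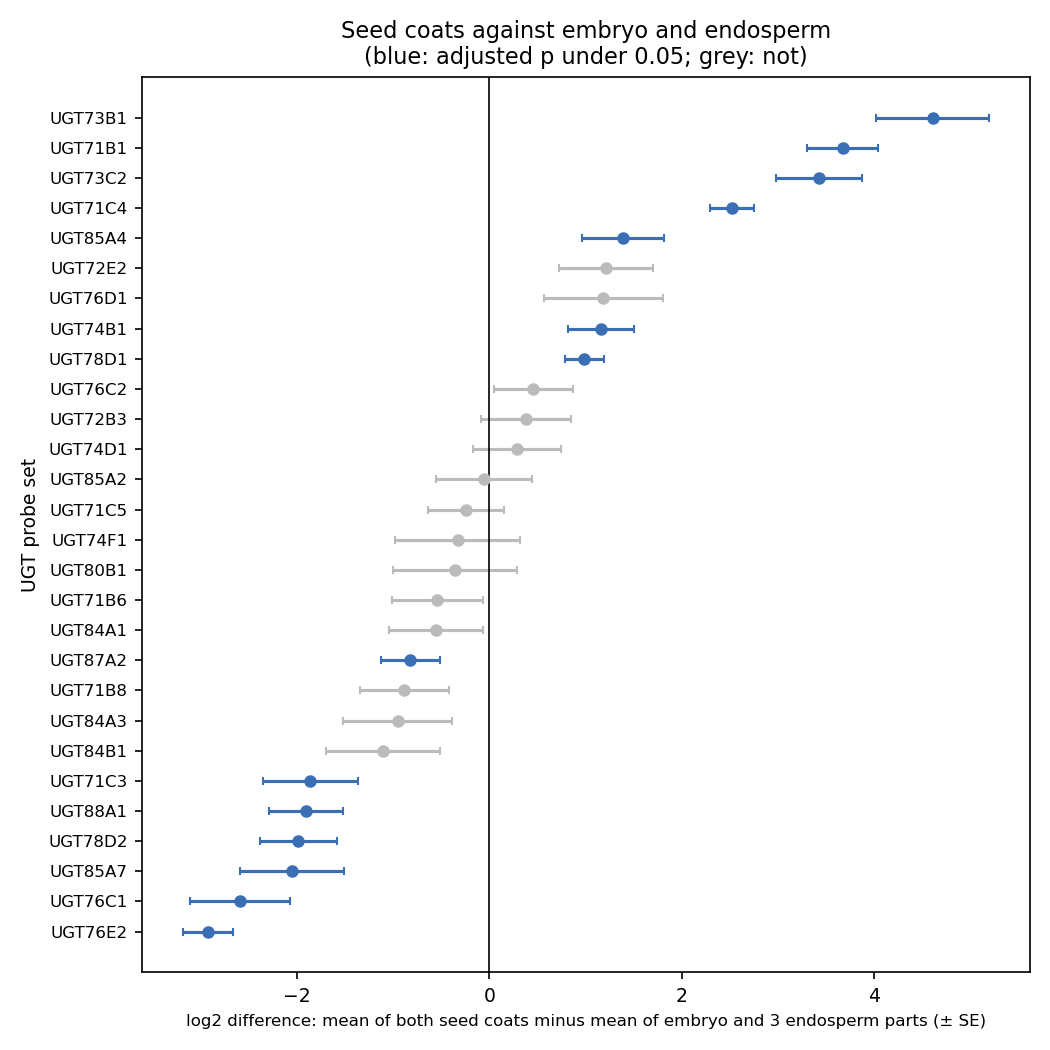
Log2 difference (with SE) between both seed coats and the embryo and endosperm parts for the 28 genes that passed the filter, with genes called at an adjusted p under 0.05 in blue and the others in grey. Positive values are higher in the coats: 7 genes were called higher, up to 4.61 for UGT73B1, and 7 lower, down to -2.92 for UGT76E2.

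Over the comparisons, the members' counts were set beside all probe sets. In embryo, 10 of 28 genes were called (25.3% of all probe sets), with 4 higher (12.6%) and 6 lower (12.7%). The higher genes were UGT71B8, UGT76C1, UGT76E2 and UGT88A1, and the lower ones UGT71B1, UGT71C4, UGT72B3, UGT73B1, UGT84A1 and UGT84B1. Without embryo replicate 1 the count was 3, and without replicate 2 it was 5. The calls of UGT84B1 and UGT88A1 were kept in all 14 refits. Those of UGT71B1, UGT71B8 and UGT73B1 ended without embryo replicate 1, that of UGT71C4 without replicate 2, and those of UGT72B3, UGT76C1, UGT76E2 and UGT84A1 without either (adjusted p up to 0.465). In micropylar endosperm 9 were called (11.5%), with 2 higher (6.15%) and 7 lower (5.37%). UGT71B8 and UGT84A1 were higher, and UGT71B1, UGT71C4, UGT72E2, UGT73C2, UGT74B1, UGT85A4 and UGT88A1 lower. The count was 1 without either micropylar array, and 5 without peripheral endosperm replicate 2 or either whole seed array. UGT71B1 was lost without micropylar endosperm replicate 1 (adjusted p = 0.233), and UGT71B8, UGT72E2 and UGT84A1 without either micropylar array (adjusted p up to 0.208). The calls of UGT71C4, UGT73C2 and UGT74B1 were each kept in 5 of 14 refits and that of UGT88A1 in 9 (adjusted p up to 0.476). In peripheral endosperm 6 were called (9.67%), with 5 higher (5.49%) and 1 lower (4.17%). UGT71C3, UGT72B3, UGT76E2, UGT84A1 and UGT85A7 were higher and UGT71C4 lower. Without peripheral endosperm replicate 1 the count was 1. Without peripheral endosperm replicate 2 limma called 0, and 9 genes had an unadjusted p under 0.05. UGT76E2 was lost without replicate 2 alone (adjusted p = 0.0654), and the other calls without either array (adjusted p up to 0.377). In chalazal endosperm 7 were called (12.8%), with 4 higher (6.75%) and 3 lower (6.09%), but 1 without chalazal endosperm replicate 1 and 2 without replicate 2. UGT76C2, UGT76E2, UGT84B1 and UGT85A7 were higher, and UGT72B3, UGT78D1 and UGT84A1 lower. UGT76E2 was lost without chalazal endosperm replicate 2 (adjusted p = 0.137) and UGT78D1 without either array (adjusted p up to 0.129). The calls of UGT72B3 and UGT84A1 were kept in 3 and 5 of 14 refits (adjusted p up to 0.254).

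In chalazal seed coat 10 were called (32.5%), with 4 higher (15.7%) and 6 lower (16.8%), but 4 without chalazal seed coat replicate 1. UGT71C4, UGT73B1, UGT73C2 and UGT74B1 were higher, and UGT71B6, UGT71C3, UGT76C1, UGT76E2, UGT78D2 and UGT85A7 lower. UGT71C4, UGT76C1 and UGT76E2 were kept in all 14 refits. UGT73C2 and UGT85A7 were lost without chalazal seed coat replicate 1 (adjusted p up to 0.319), and UGT71C3, UGT73B1 and UGT74B1 were each kept in 5 of 14 refits (adjusted p up to 0.601). In seed coat 10 were called (28.6%), with 6 higher (14.0%) and 4 lower (14.6%), and 9 to 12 without 1 array. UGT71B1, UGT71C4, UGT72E2, UGT73B1, UGT73C2 and UGT78D1 were higher, and UGT76E2, UGT84B1, UGT87A2 and UGT88A1 lower. UGT71B1, UGT71C4, UGT73B1, UGT73C2, UGT78D1 and UGT88A1 were kept in all 14 refits, and UGT76E2 and UGT84B1 were lost without seed coat replicate 1 (adjusted p up to 0.431). Between both coats and the embryo and endosperm parts 14 were called (44.7%), with 7 higher (22.0%) and 7 lower (22.7%). UGT71B1, UGT71C4, UGT73B1, UGT73C2, UGT74B1, UGT78D1 and UGT85A4 were higher in the coats, and UGT71C3, UGT76C1, UGT76E2, UGT78D2, UGT85A7, UGT87A2 and UGT88A1 lower. UGT71C3, UGT85A4 and UGT85A7 were lost without chalazal seed coat replicate 1 and UGT74B1 without replicate 2 (adjusted p up to 0.0807). UGT87A2 was kept in 8 of 14 refits, and lost without embryo, micropylar endosperm, chalazal seed coat or seed coat replicate 2, or peripheral or chalazal endosperm replicate 1 (adjusted p up to 0.169). The other 9 calls were kept in all 14. The median difference of the 28 genes was -0.28 in that comparison and -0.03 over all probe sets. In seed coat the medians were 0.44 and -0.03, and in embryo -0.60 and -0.01.

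The scaling between arrays bears on these splits. With scaling to the spiked controls, the median of all probe sets moved by -1.18 in seed coat, -0.65 in both coats, 0.47 in peripheral endosperm and 0.34 in micropylar endosperm. The split was then 4 higher and 10 lower in seed coat, 4 higher and 12 lower in both coats, 9 higher and 0 lower in peripheral endosperm, and 2 higher and 2 lower in micropylar endosperm. In chalazal endosperm it was 5 higher and 2 lower. With division by the array median, the median of all probe sets moved by -0.41 in seed coat, and the micropylar split was 2 higher and 4 lower. Quantile normalization gave 2 higher and 6 lower in chalazal seed coat and the same 2 and 4 in micropylar endosperm. None of the 66 calls changed its sign under any alternative. Of these, 18 were kept under every alternative and without every array in turn. UGT71C4, UGT71B1, UGT73B1, UGT73C2, UGT76C1, UGT76E2, UGT78D2, UGT84B1 and UGT88A1 held at least 1 of them.

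At the chalazal pole, comparisons chosen after the data were seen set chalazal tissue against its neighbours, and they share no compartment arrays with each other. Within the endosperm, 3 of 28 genes were called (9.30% of all probe sets), with 1 higher (4.57%) and 2 lower (4.73%). UGT76C2 was 2.30 ± 0.58 higher in chalazal endosperm than in the mean of micropylar and peripheral endosperm (adjusted p = 0.02). This call was lost without micropylar or peripheral endosperm replicate 2 or either chalazal endosperm array (adjusted p up to 0.125). UGT84A1 was 3.82 ± 0.69 lower (adjusted p = 0.00225) and UGT72B3 3.00 ± 0.66 lower (adjusted p = 0.00872). The UGT84A1 call was kept in all 14 refits, and that of UGT72B3 was lost without either chalazal endosperm array (adjusted p up to 0.075) and without the floor (adjusted p = 0.0672).

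Within the seed coat, 7 genes were called (14.9%), with 2 higher (7.14%) and 5 lower (7.75%). UGT84B1 (9.16-fold, adjusted p = 0.0363) and UGT88A1 (5.34-fold, adjusted p = 0.0174) were higher in chalazal seed coat. UGT71B1, UGT71B6, UGT76E2, UGT78D1 and UGT85A2 were lower there, by 1.47 to 2.94 on the log2 scale. Of the 7, 3 were still called without seed coat replicate 2 or without either chalazal seed coat array, and 4 without seed coat replicate 1. Only UGT71B1 was called in all 14 refits without 1 array. UGT84B1 was lost without any micropylar or peripheral endosperm array, replicate 2 of the chalazal seed coat or replicate 1 of the seed coat (adjusted p up to 0.36), and with no floor, no filter or no intensity trend. UGT88A1 was lost without replicate 2 of either coat (adjusted p up to 0.0801), and UGT71B6 without any coat array (adjusted p up to 0.0815). UGT76E2 and UGT78D1 were lost without chalazal seed coat replicate 1, and UGT76E2 also without replicate 2 of the seed coat (adjusted p up to 0.254). With scaling to the spiked controls UGT71B6, UGT76E2, UGT78D1 and UGT85A2 were lost. The call of UGT85A2 was kept in 2 of 14 refits (adjusted p up to 0.197) and under 1 of 8 other alternatives. In endosperm the chalazal differences of UGT84B1 and UGT88A1, 2.39 ± 0.84 (adjusted p = 0.0897) and 1.06 ± 0.54 (adjusted p = 0.27), missed the threshold. The difference between both chalazal differences was called for 3 genes, all of them higher in the endosperm comparison (6.16% of all probe sets in either direction, 2.67% higher and 3.49% lower). They were UGT71B1 (4.14 ± 0.80, adjusted p = 0.00689), UGT72E2 (3.72 ± 1.06, adjusted p = 0.0477) and UGT76E2 (2.03 ± 0.57, adjusted p = 0.0469). The call of UGT71B1 alone was kept in all 14 refits without 1 array, and those of UGT72E2 and UGT76E2 in 2 and 3 of them (adjusted p up to 0.167).

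Members that are neighbours in the genome, with at most 2 genes between them, formed 13 groups with 31 of the 47 genes. In 5 groups at least 2 members passed the filter, and in 1 of these, UGT84A1 with UGT84A3, they had the same highest compartment. The row of UGT71C5, UGT71C4 and UGT71C3 on chromosome 1 peaked in micropylar endosperm, seed coat and peripheral endosperm in turn. UGT71B1, UGT71B6 and UGT71B8 on chromosome 3 peaked in seed coat, peripheral endosperm and embryo. UGT85A7 and UGT85A2 peaked in peripheral endosperm and seed coat. These are places of the highest mean: of the genes named here, only UGT71B1 had a highest compartment told apart from the second. That of UGT71B6, UGT71B8, UGT71C4, UGT71C5 and UGT85A7 changed when an array was left out. No comparison called UGT71C5 or UGT84A3, and whether neighbours differ in pattern was not tested. Close copies can bind each other's transcripts on an array, and this was not tested.

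**Figure D4:**
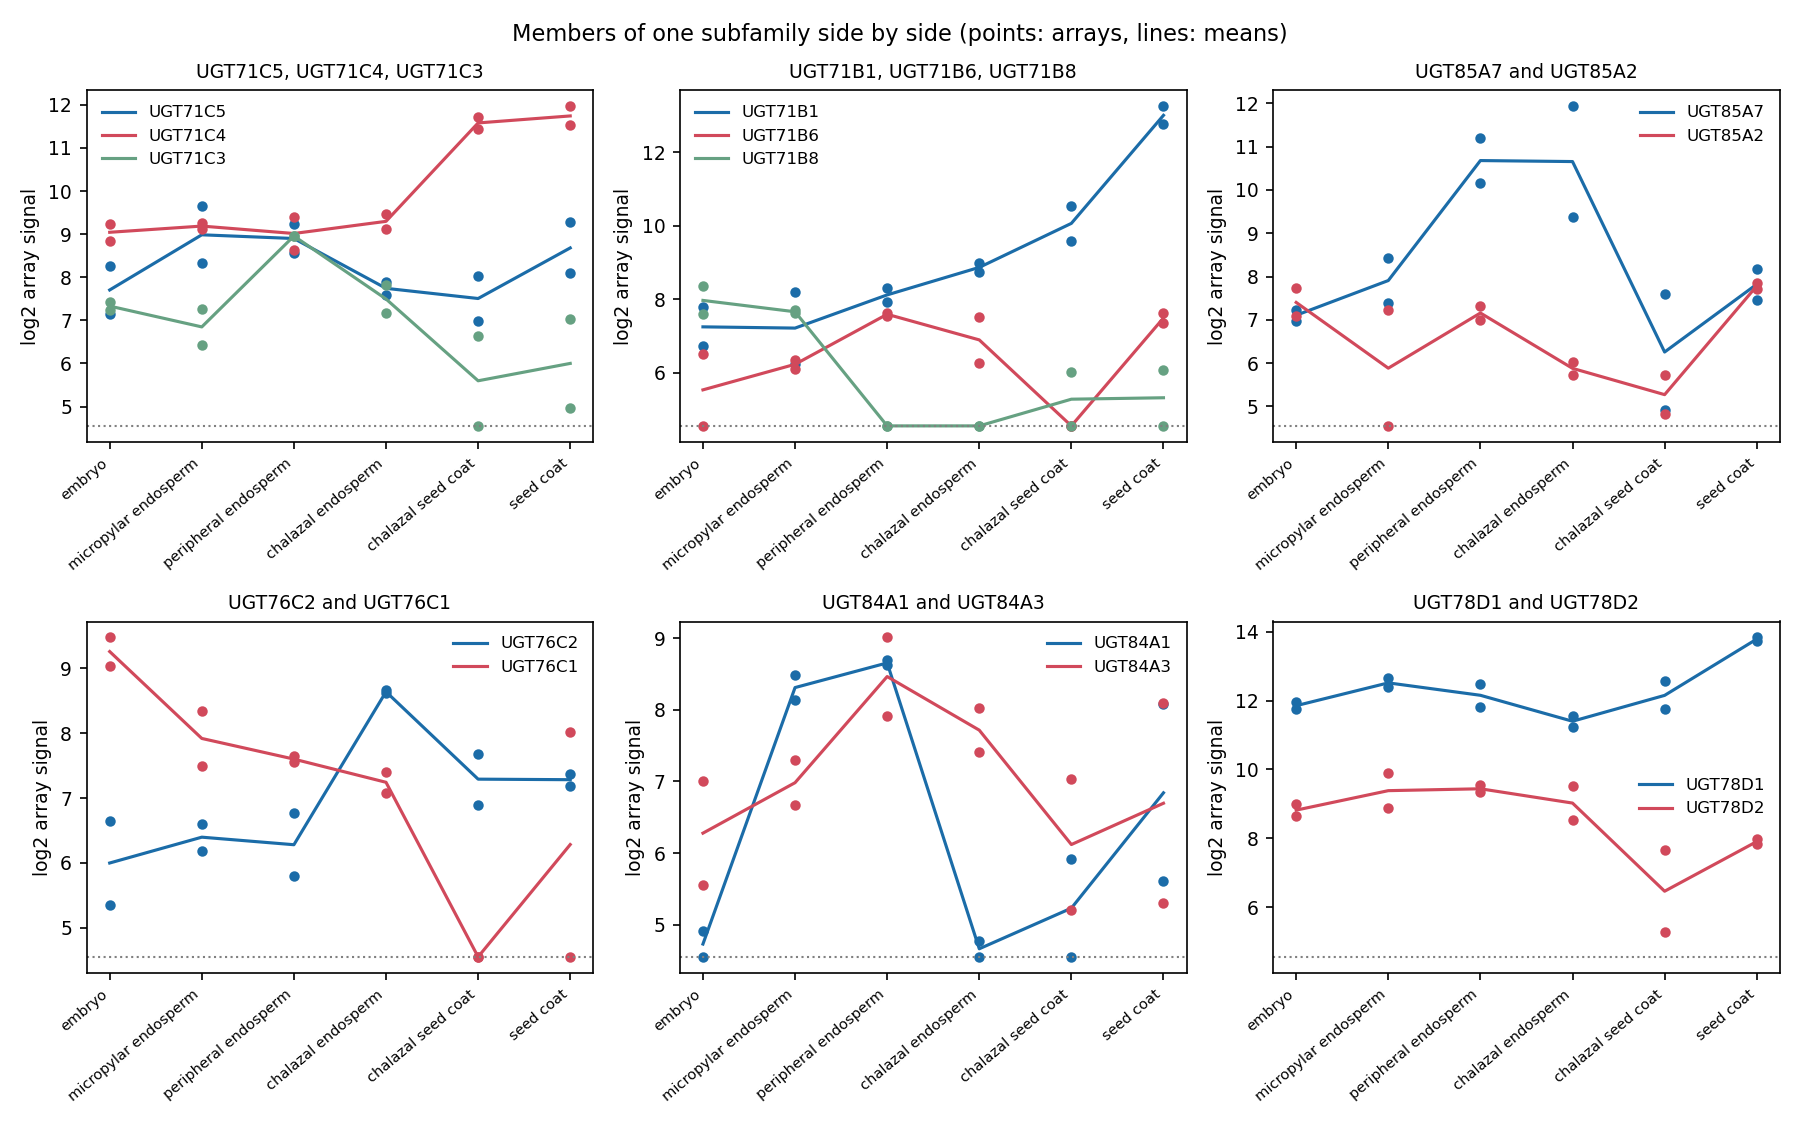
Log2 signal, floored at 23.43 (dotted line), across the 6 compartments for members of 6 subfamilies: UGT71C, UGT71B, UGT85A, UGT76C, UGT84A and UGT78D. Points are arrays and lines join the group means of a gene across compartments that have no order of their own; UGT76C1 is highest in embryo and UGT76C2 in chalazal endosperm.

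In whole seeds, 26 of the 28 genes had a mean log2 signal between those of the highest and lowest compartment. UGT74D1, with 316 and 436, was above all 6 compartments, and UGT76D1, with 12 and 9.46, was under the floor and below all of them. UGT74D1 passed the filter through whole seeds alone, so its place above the compartments only describes it. Among the genes that did not pass, UGT73C7, UGT76E11 and UGT78D3 were also above all compartments in whole seeds. UGT84B1 gave 748 and 143 in whole seeds and UGT71B1 966 and 508.

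The 19 genes that did not pass had signals from 2.29 to 282 over all arrays. They were UGT71B5, UGT71C1, UGT71C2, UGT72E1, UGT72E3, UGT73B4, UGT73B5, UGT73C1, UGT73C7, UGT73D1, UGT76B1, UGT76E1, UGT76E11, UGT76E12, UGT78D3, UGT84A4, UGT84B2, UGT85A3 and UGT85A5. Subfamilies UGT73D and UGT76B had no member that passed. Just outside the filter, UGT73B5, UGT84A4 and UGT76E11 reached 0.934, 0.866 and 0.866 times the array median on the lower array of their best group. Just inside, UGT76D1, UGT85A2 and UGT74F1 reached 1.01, 1.07 and 1.07 times. Low signal on these arrays does not show that a gene is silent.

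Of the precursor supply list, 1 of 27 genes was found. USP, which makes UDP-sugars from sugar phosphates, was 1.44 ± 0.38 higher in chalazal endosperm (1055 ± 199, n = 2) than in the other 5 compartments (adjusted p = 0.0209). UGT74F1, UGT76C2, UGT80B1 and UGT84B1 were also highest in that compartment, but for none of them was it told apart from the second compartment. A link between USP and these genes was not tested.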

How the data were processed

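The deposited values are linear array intensities, which the authors made with GCOS per the submitters' processing notes; its version and its signal algorithm are not stated there. Arrays were grouped by the labels. Before log2 was taken, each signal below 23.43 was set to that floor (per array the 20th percentile, then the median of the arrays). The arrays hold 22810 probe sets; the 64 controls among them were not tested, and 14252 of the rest passed the filter. The fit, made with limma 3.58.1 (R 4.3.3), had a mean for each of the 7 groups over all 14 arrays, which leaves 7 degrees of freedom, and variances moderated along an intensity trend. P-values were adjusted by Benjamini-Hochberg over all tested probe sets, and a call needed less than 0.05. The number of arrays limits the precision. Where all arrays of the lower group lay under the floor, the fold is written as a lower bound.

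Genes were named by the platform annotation and a gene table of assembly TAIR10.1, in which all 47 members matched a locus. Start positions from that gene table gave the order of protein-coding genes along each chromosome, from which neighbours were found. No sequences were used. The members and the gene lists were chosen with earlier results of these data known. Every member is accounted for, members called in a comparison are named, and at most 4 called genes per list and comparison. The chalazal comparisons, and the pairs set by the measured order of compartments, were chosen after seeing the data. The alternatives were no floor, no filter, 3 other scalings, the compartment arrays alone, no intensity trend, a replicate block and leaving out each array. Scripts were tested on simulated data.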

Additional observations from a re-analysis of the deposited data

Results flagged for a closer look

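For 3 genes the chalazal difference differed between endosperm and seed coat, by an interaction contrast of the limma fit that was chosen after seeing the data (878 of 14252 probe sets were called, 6.16%). For UGT71B1 chalazal endosperm was 1.20 ± 0.52 above the other endosperm (adjusted p = 0.184) and chalazal seed coat 2.94 ± 0.60 below seed coat (adjusted p = 0.00438). The difference of the differences was 4.14 ± 0.80 (adjusted p = 0.00689). It was kept without each array in turn (adjusted p up to 0.0278) and under every other alternative run (adjusted p up to 0.029). For UGT72E2 the chalazal differences were 1.77 ± 0.69 in endosperm (adjusted p = 0.131) and -1.95 ± 0.80 in seed coat (adjusted p = 0.114), and they differed by 3.72 ± 1.06 (adjusted p = 0.0477). For UGT76E2 they were 0.55 ± 0.37 (adjusted p = 0.431) and -1.47 ± 0.43 (adjusted p = 0.0317), and they differed by 2.03 ± 0.57 (adjusted p = 0.0469). The UGT72E2 result was lost when any array but peripheral endosperm replicate 2 or chalazal seed coat replicate 2 was left out (adjusted p up to 0.154). The UGT76E2 result was lost without any 1 array, except micropylar endosperm replicate 2, seed coat replicate 1 or chalazal seed coat replicate 2 (adjusted p up to 0.167). Both were also lost with no floor, no filter, division by the array median, scaling to the spiked controls and the compartment arrays alone, and that of UGT76E2 also with no intensity trend (adjusted p up to 0.105 for UGT72E2 and 0.463 for UGT76E2).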

How the results depend on the processing

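Counts of called UGT genes moved by over 1.5 times as follows, and the cause was not tested unless stated. With no filter, which tests more probe sets, 1 gene was called in micropylar endosperm, 4 in chalazal endosperm, 4 between the coats and 1 for the chalazal interaction. With no floor, the interaction count was 1. Division by the array median gave 1 gene higher than in each other compartment, 5 for chalazal against other endosperm and 1 for the interaction. Scaling to the spiked controls gave 4 in micropylar endosperm, 1 higher than in each other compartment, 6 within the endosperm and 5 for the interaction, and turned UGT78D1 in seed coat against micropylar endosperm to -0.0467. The compartment arrays alone gave 5 in micropylar endosperm and 1 for the interaction, and no intensity trend gave 1 higher than in each other compartment. Without 1 array, the F test called 17 to 20 genes. The counts were 3 to 11 in embryo, 1 to 9 in micropylar, 0 to 8 in peripheral and 1 to 9 in chalazal endosperm, 4 to 12 in chalazal seed coat, 9 to 12 in seed coat and 11 to 15 for both coats. They were 1 to 2 higher than in each other compartment, 1 to 5 within the endosperm, 3 to 7 between the coats and 1 to 4 for the interaction. These refits have fewer arrays, and a lone array is assumed to vary like the other groups. Same-numbered arrays did not deviate together (correlations of -0.0613 to 0.0963 over 21 pairs of groups), so they share only a number; with a replicate block the counts were 20 by the F test, 10 in embryo, 10 in micropylar, 6 in peripheral and 6 in chalazal endosperm, 10 in chalazal seed coat, 11 in seed coat and 14 for both coats. The highest compartment changed under 1 or more scalings for UGT71C4, UGT71C5, UGT73C2, UGT78D1, UGT78D2 and UGT85A2, and without 1 array for 11 genes. The replicate block ended the calls of UGT72B3 in chalazal endosperm, UGT85A2 between the coats and UGT72E2 for the interaction, and no other named call. Of the 66 calls in the 7 main comparisons, 38 were kept under every alternative other than leaving out arrays, and 20 without every array in turn. Signals near the floor limit the genes that are low in a compartment.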
